A study of Mus musculus with 4 samples.

Results

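The platelet-derived growth factor (PDGF) system was read from the open chromatin of mouse heart nuclei at 6 genes: the receptors *Pdgfra* and *Pdgfrb* and the ligands *Pdgfa*, *Pdgfb*, *Pdgfc* and *Pdgfd*. These are 6 of 21755 protein-coding genes on the autosomes and the X chromosome. They were chosen by name, and all 6 were found in the GENCODE annotation of mm10. ATAC-Seq, in which a transposase cuts accessible DNA, had been run on nuclei sorted from whole hearts of male C57BL/6 mice aged 8 to 12 weeks that carried Cdh5-Cre and the NuTRAP reporter. Cdh5, also called VE-cadherin, is an endothelial gene whose promoter drives the Cre, and every mouse carried both transgenes. The GFP+ nuclei are thus those in which Cre has been active in the cell or its ancestors, and the GFP- nuclei are all others of the heart. Single nuclei with the DNA content of non-dividing diploid cells were sorted after removal of doublets, and 100 to 50000 of them went into a reaction. Each population had 2 libraries, which the authors joined into 1 peak list. The labels name no individual mice for these libraries, and a scheme in the study speaks of biological replicates for its ATAC-Seq of endothelial nuclei. The values below are therefore 1 per population, without an error between replicates, and no difference could be tested.

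PDGFs are disulfide-linked dimers that activate receptor tyrosine kinases on neighbouring cells. In blood vessels, endothelial cells release PDGF-B, and pericytes and smooth muscle cells that carry PDGFRβ are recruited to the vessel wall. PDGFRα is a well-known marker of fibroblasts and their progenitors, in the heart as elsewhere. PDGF-A signals through PDGFRα, PDGF-B through both receptors, and PDGF-C and PDGF-D become active only after a protease removes their CUB domain.

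The GFP- list held 78912 peaks and the GFP+ list 65008. Each peak has an area, the signal that the caller summed over its length, and peaks were ordered by it in each list separately, giving percentile ranks from 0 for the smallest peak to 100 for the largest. A start peak overlaps an annotated transcript start +/- 250 bp, and a gene without one is given rank 0. Of the GFP- peaks, 30.3% overlapped no GFP+ peak, and of the GFP+ peaks, 13.4% overlapped no GFP- peak. The labels were checked on marker genes. All 8 endothelial markers ranked higher in GFP+, 3 of them with a start peak only there. Of 6 fibroblast markers, 4 had a start peak only in GFP-, and all 7 pericyte and smooth muscle markers ranked lower in GFP+. Of these 7, 3 ranked lower by more than 20 points, where 7.33% of all genes with a start peak in either list did. The median difference of those genes, GFP+ minus GFP-, was -0.814 points. Against the GFP+ label, start peaks of *Col1a1*, *Cspg4*, *Kcnj8*, *Abcc9* and *Myh11* stood in the GFP+ list, at ranks of 49.1 to 80.7. Against the GFP- label, start peaks of the endothelial genes *Kdr*, *Egfl7*, *Tie1*, *Cdh5* and *Gpihbp1* stood in the GFP- list, at 74.3, 72.6, 48.3, 18 and 4.98. All 6 cardiomyocyte markers had a start peak in both lists, at 86.0 or above in GFP+. Of 5 leukocyte markers, only *Cd68* had a start peak, at rank 31.8 in GFP- and 16.8 in GFP+, and 3 glial markers had none. The part that nuclei of other cell types may have in the peaks below was not tested. The GFP- population holds several cell types by design. Where a list holds more than one type, fewer nuclei of a type and less accessibility per nucleus cannot be told apart.

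At the starts, the receptors and *Pdgfb* differed between the populations in opposite directions. All 6 members had a start peak in GFP-, where 61.8% of all protein-coding genes had one. In GFP+, 5 of 6 had one, against 59.8% of all genes. The exception was *Pdgfrb*, whose start peak ranked 83.0 in GFP- and was absent from the GFP+ list. A start peak only in GFP- was seen at 4.71% of the 13643 genes with one in either list, and a start peak only in GFP+ at 1.46%. The start rank of *Pdgfra* was 96.5 in GFP- and 87.0 in GFP+, a difference of -9.41 points. That of *Pdgfb* was 76.1 in GFP- and 95.7 in GFP+, a difference of 19.6 points. Over all genes the median difference, GFP+ minus GFP-, was -0.814 points, with 5% of genes under -30.2 and 5% over 5.97. A fall by more than 20 points was found at 7.33% of genes and a rise by more than 20 points at 1.94%, so that *Pdgfrb* lay past the first limit and *Pdgfb* just inside the other. Among the 13643 genes, the difference of *Pdgfrb* stood at percentile 0.180, that of *Pdgfra* at 12.5 and that of *Pdgfb* at 98. With peaks ranked by the -log10 p of their summits instead of by area, the *Pdgfra* difference was -0.0465 points, and that of *Pdgfb* was 26.1. Among the other ligands, *Pdgfd* ranked 81.0 in GFP- and 87.5 in GFP+, a difference of 6.54 points at percentile 95.3, and of 8.91 points under the other ranking. *Pdgfc* ranked 71.1 and 71.8, and *Pdgfa* 99.9 in both. The signs of the *Pdgfa* and *Pdgfc* differences depended on how peaks were ranked. In order of GFP+ rank the members were *Pdgfa*, *Pdgfb*, *Pdgfd*, *Pdgfra*, *Pdgfc* and *Pdgfrb*, and in order of GFP- rank *Pdgfa*, *Pdgfra*, *Pdgfrb*, *Pdgfd*, *Pdgfb* and *Pdgfc*. Without replicates, it cannot be said which neighbours in these orders differ.

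**Figure D1:**
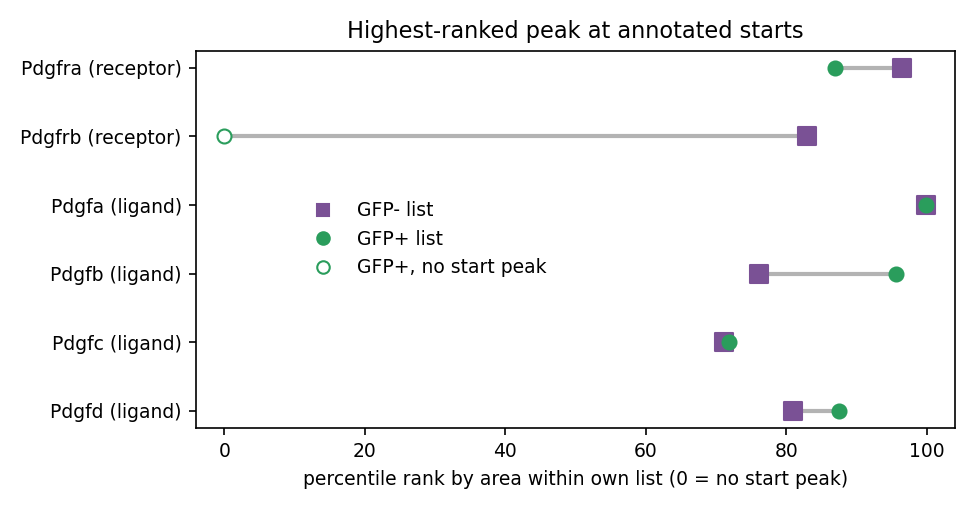
Percentile rank by area (x axis, 0 to 100) of the highest-ranked start peak of each PDGF gene (y axis) in the GFP- list (squares) and the GFP+ list (circles), joined by a line, 1 value per list. The *Pdgfrb* symbols lie at 83.0 and, without a start peak, at 0, while the *Pdgfb* symbols lie at 76.1 in GFP- and 95.7 in GFP+.

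*Pdgfra*, the receptor of fibroblasts and their progenitors, had a GFP+ peak of high rank at 2 inner starts and none at its first ones. The gene lies at chr5:75152292-75198215 on the plus strand and has 9 annotated starts. In GFP-, 8 of the 9 were at a peak, and in GFP+ 2 of the 9. The 3 starts nearest the 5′ end lay in a GFP- peak at chr5:75151858-75152433, with rank 70.1, and at no GFP+ peak. The next 5 lay at a GFP- peak of 4326 bp at chr5:75153048-75157373, with rank 96.5. Within that stretch the GFP+ list held a peak of 1686 bp at chr5:75155673-75157358, with rank 87.0, which covered the starts of Pdgfra-202 and Pdgfra-209. Their summits were 88 bp apart. It also held a peak at chr5:75154116-75154669, whose rank of 4.08 is among the lowest in the list. A further 3 GFP- peaks upstream of the first start had no GFP+ counterpart: one at chr5:75147783-75149579 with rank 85.6, one at chr5:75150702-75151637 with rank 70.6 and one at chr5:75149687-75150403 with rank 56.2. Farther upstream, 2 GFP- only peaks had ranks of 31.6 and 7.72. A peak 8893 bp upstream of the 5′ end, by its GFP- summit, was shared, with a rank of 60.8 in GFP- against 16.1 in GFP+. No peak of either list lay in the gene beyond these starts or in the 50 kb downstream. The antisense gene Gm42802 and the gene Gm42803 start inside the same GFP- peak, and ATAC-Seq peaks carry no strand, so the signal cannot be split between them and *Pdgfra*.

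The sequences at these places show what the GFP+ list lacked and what it kept. They are given 5′ to 3′ on the strand of the gene, mm10, restricted to bases outside exons of protein-coding genes, with any of 11 searched words in capitals. The words were searched on both strands. CAGGAAG stands for ETS factors, which include endothelial regulators such as ERG. The E-box word CAGCTG is bound by basic helix-loop-helix factors such as TCF21. TGANTCA is the site of AP-1, the FOS and JUN dimer of growth factor responses. AGATAAG is a word of GATA factors, and TAAAAATA one of MEF2 factors of muscle. CATTCCA is bound by the TEAD partners of YAP. GTGGGAA is the word of RBPJ, which mediates Notch signalling. The NF1 word TTGGCA stands for the NFI family. GGGCGGG belongs to SP and KLF factors of GC-rich promoters. The shear stress element GAGACC was named for its part in the response of a ligand gene to flow. The EGR1 word was GCGNGGGCG, which can overlap the SP/KLF one. The first sequence is the promoter at chr5:75152001-75152250 from RefSeq, GRCm38.p6, which lies inside the GFP- only start peak. The others are the summit of the upstream GFP- only peak of highest rank, at chr5:75148906-75149105, and the intronic stretch around the GFP+ summit at the inner starts, at chr5:75156350-75156500.
Pdgfra promoter: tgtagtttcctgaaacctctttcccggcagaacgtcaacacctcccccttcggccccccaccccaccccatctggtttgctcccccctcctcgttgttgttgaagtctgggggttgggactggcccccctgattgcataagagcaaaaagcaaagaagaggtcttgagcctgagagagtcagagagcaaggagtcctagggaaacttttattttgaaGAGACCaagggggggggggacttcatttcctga
Pdgfra upstream: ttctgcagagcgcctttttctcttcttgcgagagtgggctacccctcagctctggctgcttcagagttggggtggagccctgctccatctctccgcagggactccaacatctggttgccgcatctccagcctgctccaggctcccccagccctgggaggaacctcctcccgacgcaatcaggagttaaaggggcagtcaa
Pdgfra inner start: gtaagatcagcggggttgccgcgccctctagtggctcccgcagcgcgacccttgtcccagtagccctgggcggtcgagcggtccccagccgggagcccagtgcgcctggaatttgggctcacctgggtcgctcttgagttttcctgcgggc
The promoter held the shear stress word once, and 16.4% of 32851 RefSeq promoter windows held it at least once. The other 2 stretches held none of the words. The G and C share was 54.4% in the printed promoter, 60.5% in the upstream stretch and 68.2% at the inner start. The promoter's whole window of 250 bases before to 50 after the start had a ratio of observed to expected CpG of 0.256, where the median of all windows was 0.384. Promoter windows were matched for 4 of the 6 members, *Pdgfra*, *Pdgfa*, *Pdgfc* and *Pdgfd*, and not for *Pdgfb* and *Pdgfrb*.

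*Pdgfrb*, the receptor of pericytes and smooth muscle, had no GFP+ peak at its start or in its first intron. The gene lies at chr18:61045150-61085061 on the plus strand. Its start peak in GFP-, at chr18:61044607-61045520, ranked 83.0 and covered both annotated starts. The GFP- peak of highest rank was not at the start but in intron 1, at chr18:61053768-61055753, with a length of 1986 bp and rank 87.6. A second one in intron 1, at chr18:61056327-61057573, ranked 79.9. Neither had a GFP+ counterpart, and the other GFP- peaks of intron 1 ranked 41.4 or lower. In all, 18 GFP- peaks lay in the gene and its 50 kb flanks. Of these, 13 (72.2%) overlapped no GFP+ peak, beside 30.3% of the whole GFP- list. All 5 GFP+ peaks of this window overlapped a GFP- peak, as did 86.6% of the whole GFP+ list. Those inside the gene were in intron 8, at rank 34.8 in GFP- and 27.7 in GFP+, and in intron 9, at rank 48.9 in GFP- and 11.8 in GFP+. The one of highest GFP+ rank, 62.9, lay 43732 bp upstream inside *Slc6a7*, where the GFP- peak ranked 77.7. A weak upstream pair, 26609 bp from the start, was the only one that ranked higher in GFP+, at 41.5 against 32.1. *Csf1r*, a macrophage receptor gene downstream, and the upstream genes *Slc6a7* and *Cdx1* had no start peak in either list.

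Over both receptors, 7 of 26 GFP- window peaks overlapped a GFP+ peak. This is 26.9%, with a Wilson 95% interval of 13.7% to 46.1% that covers counting error only. It was 11.5% when an overlap of at least 50% of both peaks was required. Over all genes with 5 or more GFP- window peaks, the median share was 80.0%, and *Pdgfra* stood at percentile 1.23 and *Pdgfrb* at 1.5. All 8 GFP+ window peaks of the receptors were shared, beside 86.6% of the whole GFP+ list. The receptor peaks missing from GFP+ included those at starts (4 of 5), in introns (7 of 9) and in upstream flanks (8 of 11). Of the whole GFP- list, 30.3% overlapped no GFP+ peak, and shares by class were not computed for it. The shared receptor peaks were mostly weaker in GFP+, with a lower rank in 7 of 8 overlapping pairs and a median difference of -16.0 points. A GFP- peak of *Pdgfra*, at chr5:75153048-75157373, enters 2 of the 8 pairs, including the one with the lowest difference, -92.4 points. Over all 57271 overlapping pairs of the lists, 35.1% ranked higher in GFP+, and the median difference was -2.02 points.

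**Figure D2:**
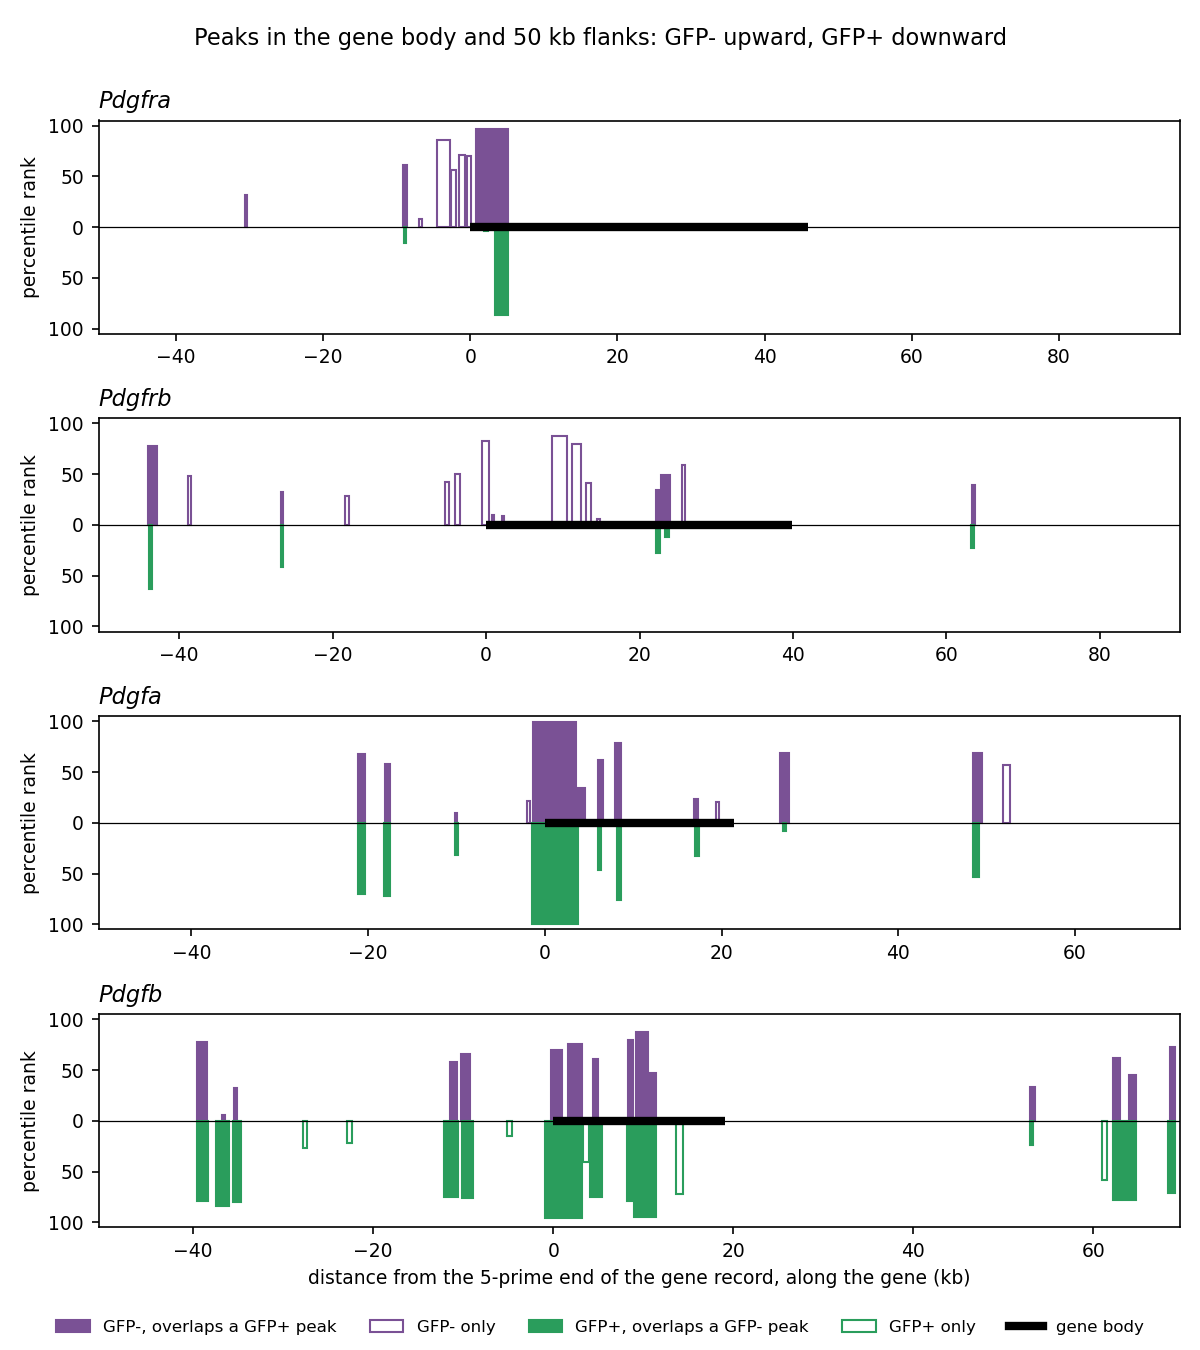
Peaks of *Pdgfra*, *Pdgfrb*, *Pdgfa* and *Pdgfb* by distance from the 5′ end of the gene (x axis, kb along the gene), with height giving the percentile rank of the peak, GFP- upward and GFP+ downward. Filled bars overlap a peak of the other list and open bars do not, and bars are drawn at least 0.3 kb wide. Open bars crowd the first 15 kb and the upstream flank of *Pdgfrb* and the upstream flank of *Pdgfra* on the GFP- side, and stand only on the GFP+ side at *Pdgfb*.

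*Pdgfa*, the ligand of PDGFRα, was among the most open starts of both lists. The gene lies at chr5:138976014-138997370 on the minus strand, and all of its 7 annotated starts lay in a single broad peak. In GFP- this peak spanned 4881 bp at chr5:138993823-138998703 and was number 76 of the list by area. In GFP+ it spanned 5173 bp at chr5:138993624-138998796 and was number 57. The summits were at the same base. Introns are numbered by the transcript Pdgfa-202. Of the promoter windows in the RefSeq table, the one that spans the starts of Pdgfa-201 and Pdgfa-202 is shown without exon bases, at chr5:138995038-138995194, minus strand.
Pdgfa promoter: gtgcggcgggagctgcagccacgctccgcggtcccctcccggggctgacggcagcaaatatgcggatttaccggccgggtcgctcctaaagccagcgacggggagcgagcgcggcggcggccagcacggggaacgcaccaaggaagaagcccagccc
None of the words fell in this stretch, but the whole window held the SP/KLF word, as did 25.6% of all promoter windows. The whole window had a G and C share of 73.3% and a CpG ratio of 0.940, against medians of 52.7% and 0.384 over all promoter windows. Its 13 GFP- window peaks included 3 without a GFP+ counterpart, of ranks 57.0, 21.7 and 20.5. All 9 GFP+ window peaks were shared, beside 86.6% of the whole GFP+ list. The GFP- only part was 23.1%, beside 30.3% of the whole list, and the shared part stood at percentile 42.3 among genes with 5 or more GFP- window peaks. In intron 2, a peak ranked 78.4 in GFP- and 76.0 in GFP+, and a second 62.1 and 46.8. The pair of largest difference among those with a single counterpart on each side lay downstream of the gene, at chr5:138969697-138970811, where the GFP- rank was 69.1 and the GFP+ rank 7.73. The antisense gene 6330403L08Rik starts in the same broad peak. *Prkar1b*, the nearest upstream coding gene, had start ranks of 98.1 in GFP- and 97.6 in GFP+, from peaks outside the *Pdgfa* window.

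*Pdgfb*, the endothelial ligand that draws pericytes to vessels, had longer peaks in GFP+, of higher rank by area, at its starts, in intron 2 and upstream. The gene lies at chr15:79995874-80014977 on the minus strand and has 3 annotated starts. In GFP- these lay at separate peaks, at chr15:80011758-80013350 with rank 76.1 and at chr15:80013959-80015245 with rank 70.2. In GFP+ a single peak of 4134 bp, at chr15:80011789-80015922 with rank 95.7, ran over all of them. Its summit was 19 bp from that of the second GFP- peak. The strongest distal peak was in intron 2, with rank 87.8 and a length of 1369 bp in GFP-, and with rank 95 and 2401 bp in GFP+ at chr15:80003564-80005964. These summits were 3 bp apart. This pair was not higher in GFP+ by other measures. It ranked 89.9 in GFP- and 89.8 in GFP+ by the -log10 p of the summit, and 75.0 and 70.9 by area per bp. The GFP+ peak also ran over a second GFP- peak of intron 2, with a length of 726 bp and rank 47.1. A peak in intron 4, at chr15:80000509-80001308 with rank 71.8, was in GFP+ alone, and so was one in intron 1, at chr15:80011058-80011676 with rank 40.8. A group of 3 peaks between 35 and 40 kb upstream was in both lists. The rank of the nearest was 32.7 in GFP- and 79.8 in GFP+. That of the middle one, at chr15:80050989-80052390 in GFP+, was 5.25 in GFP- and 83.8 in GFP+, the largest rise among the 37 overlapping pairs of the 6 windows. The farthest ranked 77.4 and 79.4. The antisense gene Gm41361 has its start within the GFP+ start peak. *Cbx7*, the neighbouring coding gene, had start ranks of 87.2 in GFP- and 85.9 in GFP+, from peaks outside the *Pdgfb* window.

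Distal places of this gene are shown as 200 bp around the GFP+ summit, on the minus strand: the strongest intronic peak at chr15:80005055-80005254, the GFP+ only peak of intron 4 at chr15:80000697-80000896, and the upstream peak with the largest gain at chr15:80051489-80051688.
Pdgfb intron 2: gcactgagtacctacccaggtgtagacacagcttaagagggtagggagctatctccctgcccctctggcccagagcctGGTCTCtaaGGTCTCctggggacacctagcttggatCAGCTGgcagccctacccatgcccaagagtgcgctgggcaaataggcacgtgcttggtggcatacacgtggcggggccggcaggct
Pdgfb intron 4: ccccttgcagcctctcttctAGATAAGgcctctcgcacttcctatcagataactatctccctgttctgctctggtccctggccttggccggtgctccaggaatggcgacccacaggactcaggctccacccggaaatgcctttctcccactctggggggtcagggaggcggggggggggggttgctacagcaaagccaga
Pdgfb far upstream: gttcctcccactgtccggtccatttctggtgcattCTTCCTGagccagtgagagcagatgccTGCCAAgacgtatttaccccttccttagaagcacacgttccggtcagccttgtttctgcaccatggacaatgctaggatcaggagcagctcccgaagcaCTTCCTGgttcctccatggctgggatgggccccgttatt
The intron 2 stretch held the shear stress word 2 times, 3 bases apart and both in reverse complement, and the E-box word once. The shear stress word takes its name from the human *PDGFB* promoter, where a response to flow was mapped, and 9.65% of all GFP+ summit windows of this length held it. The intron 4 stretch held the GATA word, found in 3.26% of GFP+ windows. The upstream stretch held the ETS word 2 times and the NF1 word once, words found in 13.0% and 19% of GFP+ windows.

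All 15 GFP- window peaks of *Pdgfb* overlapped a GFP+ peak, where 69.7% of the whole GFP- list did. Of its 19 GFP+ peaks, 6 overlapped no GFP- peak. The shared part of the GFP+ peaks was 68.4%, with a Wilson 95% interval of 46.0% to 84.6%. Over genes with 5 or more GFP+ window peaks, the median was 91.7%, and *Pdgfb* stood at percentile 6.73. Of its 15 overlapping pairs, 12 ranked higher in GFP+, with a median difference of 16.0 points, and in 14 the GFP+ peak was the longer one. Since 2 GFP+ peaks overlapped 2 GFP- peaks each, these enter more than once. With every GFP+ peak counted once, 10 of 13 ranked above all their GFP- counterparts, and 12 of 13 were longer than these together. These ranks are by area, which is summed over the length of a peak. By the -log10 p of the summit, fewer of the 13 ranked above all their counterparts. Over all pairs of the lists the GFP+ peak was longer in 36.9%. Summits lay at most 50 bp apart in 10 of the 15 pairs, beside 72.9% of all pairs. With an overlap of at least 50% of both peaks required, the shared part of the *Pdgfb* GFP+ peaks was 36.8%.

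*Pdgfc* and *Pdgfd*, the ligands that need a protease for activation, had few peaks in long genes. *Pdgfc*, at chr3:81036416-81214040, had 2 peaks in each list, both shared: its start peak, and one in intron 1 with rank 65.6 in GFP- and 63.9 in GFP+. The start peak was within 250 bp of all 3 annotated starts in both lists. *Pdgfd*, at chr9:6168584-6378850, had 2 peaks in GFP- and 4 in GFP+. Its start peak and a peak in intron 5, with rank 48.7 in GFP- and 55.5 in GFP+, were shared. The GFP+ only peaks were one at chr9:6169116-6169735, 982 bp from the 5′ end and with rank 70.5, and one downstream of the gene at chr9:6401836-6402256, with rank 62.0. Of the whole GFP+ list, 13.4% overlapped no GFP- peak, and 4 peaks are too few to compare with that share. The promoters from RefSeq and the GFP+ only peak near the *Pdgfd* start are shown on the plus strand, at chr3:81036166-81036415, chr9:6168236-6168362 and chr9:6169466-6169665.
Pdgfc promoter: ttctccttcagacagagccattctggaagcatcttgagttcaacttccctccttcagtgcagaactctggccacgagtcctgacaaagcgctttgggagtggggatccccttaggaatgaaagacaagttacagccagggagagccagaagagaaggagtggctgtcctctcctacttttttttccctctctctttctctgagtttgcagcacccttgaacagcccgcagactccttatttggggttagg
Pdgfd promoter: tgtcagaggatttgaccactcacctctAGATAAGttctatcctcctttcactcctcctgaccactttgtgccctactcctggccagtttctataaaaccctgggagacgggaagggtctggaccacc
Pdgfd downstream of start: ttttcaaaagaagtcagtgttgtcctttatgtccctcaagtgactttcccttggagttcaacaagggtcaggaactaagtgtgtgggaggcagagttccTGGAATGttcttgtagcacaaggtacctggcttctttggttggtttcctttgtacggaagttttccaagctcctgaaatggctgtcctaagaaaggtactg
The *Pdgfd* promoter held the GATA word, found in 3.04% of promoter windows, and the GFP+ only stretch the TEAD word in reverse complement, found in 4.08% of GFP+ summit windows. The *Pdgfc* stretch held none. Their whole windows had CpG ratios of 0.353 for *Pdgfc* and 0.346 for *Pdgfd*, a little under the median of 0.384.

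**Figure D3:**
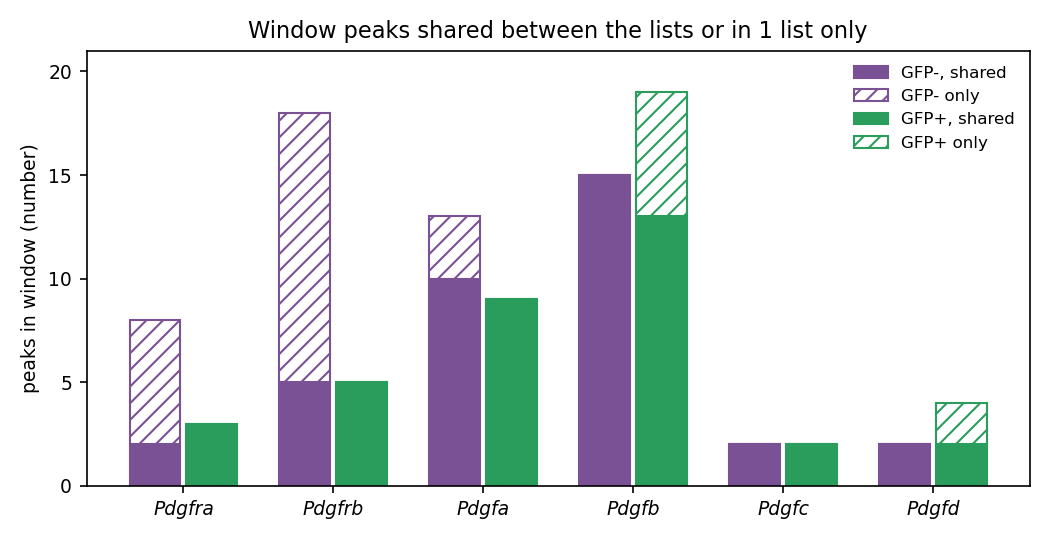
Number of peaks (y axis) in the gene body and 50 kb flanks of each PDGF gene (x axis) in the GFP- list (left bars) and the GFP+ list (right bars), divided into peaks that overlap a peak of the other list (filled) and peaks in 1 list only (hatched). The hatched part is 6 of 8 at *Pdgfra* and 13 of 18 at *Pdgfrb* in GFP-, and 6 of 19 at *Pdgfb* in GFP+.

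The endothelial ligand and the stromal receptors can be set side by side on the length covered by peaks per kb of gene body and flanks. Gaps between neighbouring peaks are not counted in this length, and GFP+ peaks of *Pdgfb* bridged gaps of 608 bp at the starts and 148 bp in intron 2. At *Pdgfb* this was 102 bp per kb in GFP- and 182 in GFP+, a ratio of 1.79. At *Pdgfra* it was 64.9 in GFP- and 16.7 in GFP+, a ratio of 0.257, and at *Pdgfrb* 85.9 and 14.0, a ratio of 0.163. The median over all genes was 30.4 in GFP- and 25.4 in GFP+, and the whole lists covered 52.1 and 41.8 Mb. Among the differences of all genes, GFP+ minus GFP-, *Pdgfrb* stood at percentile 0.329, *Pdgfra* at 1.41 and *Pdgfb* at 100.0. *Pdgfa* lay between them, with 103 in GFP- and 75.6 in GFP+, at percentile 6.35. *Pdgfc* covered 5.37 and 5.06 and *Pdgfd* 3.95 and 7.63, each under the median gene in both lists.

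**Figure D4:**
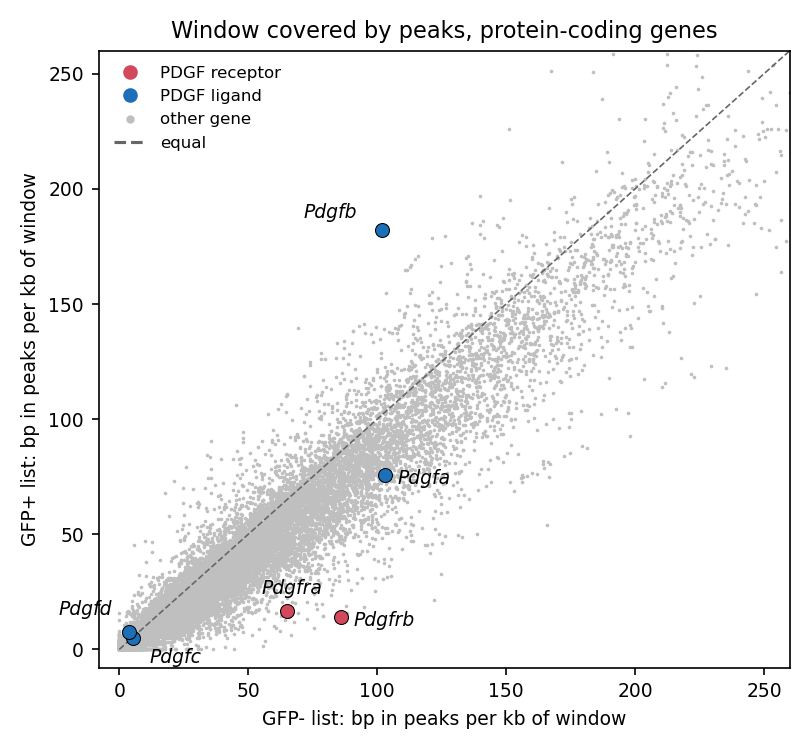
Length in peaks per kb of gene body and 50 kb flanks, for the GFP- list (x axis, bp per kb) and the GFP+ list (y axis, bp per kb), with 1 point for each of 21755 protein-coding genes, PDGF receptors in red and ligands in blue. The dashed line marks equal length, and 98 genes lie beyond the axes. *Pdgfb*, at 102 and 182, lies far above the line, and *Pdgfra* and *Pdgfrb*, at 16.7 and 14.0 in GFP+, far below it.

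Over all the members, 58 GFP- and 42 GFP+ peaks lay in the 6 windows, and 22 and 8 of them, respectively, were in 1 list only. These are 37.9% and 19% of the members' peaks, beside 30.3% and 13.4% of the whole lists. The receptor GFP- windows and the *Pdgfb* GFP+ windows were compared with their lists on the searched words. Of the 26 receptor summit windows in GFP-, 4 held the ETS word, 4 the E-box, 4 the RBPJ word and 5 the shear stress word, and 0 held the AP-1 word. Over the whole GFP- list, these words were found in 11.3%, 22.0%, 4.92%, 9.50% and 9.99% of windows. All 4 receptor windows with the RBPJ word were at *Pdgfrb* and in GFP- only. Of the 19 *Pdgfb* windows in GFP+, 6 held the E-box, 3 the AP-1 word, 3 the NF1 word, 2 the ETS word and 2 the shear stress word, where the GFP+ list had 18.4%, 7.71%, 19%, 13.0% and 9.65%. With so few windows these counts are a description, and a match does not show that a factor binds.

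The genes most like each member in start rank and shared share were looked for among 11910 genes with at least 5 window peaks in each list. Likeness was the Euclidean distance over 4 values from the 2 lists, in points. For *Pdgfrb* the nearest were *Ror2*, at a distance of 6.13, and *Enox1*, at 12.2. Neither had a start peak in GFP+, which entered the distance as a rank of 0 and so follows from the matching. For *Pdgfb* they were *Egfl7*, an endothelial gene, at 7.18, and *F11r*, at 8.09. For *Pdgfa* they were *Pim1*, at 0.399, and *Srsf2*, at 0.784. The other 3 members had too few peaks.

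Beyond the ligands and receptors, the starts of the PDGF pathway differed little between the populations. Of 43 genes in the list, 40 had a start peak in both lists, 1 in GFP- only, 0 in GFP+ only and 2 (*Plg* and *Cbl*) in neither. Over all protein-coding genes, 58.8% had a start peak in both lists, and of genes with one in either list, 4.71% had it in GFP- only and 1.46% in GFP+ only. The median rank difference was -0.694 points, beside -0.814 over all genes, with 33 genes lower and 8 higher in GFP+. As the median over all genes was negative as well, more lower than higher ranks is not particular to this list. Among the genes that process ligands, *Plau*, the urokinase that can activate PDGF-D, ranked 78.4 in GFP- and 52.7 in GFP+. This was the largest fall of the list. All 5 genes of this role with a start peak ranked lower in GFP+. Among co-receptors and modifiers, *Pdgfrl*, which encodes a PDGF receptor-like protein, had a start peak of rank 24.4 in GFP- only, and *Cspg4*, the pericyte proteoglycan NG2, ranked 85.6 and 76.1. *Itgb3*, an integrin subunit, ranked 62.0 and 63.9. The 22 adaptors and kinases with a start peak had a median difference of -0.567 points, and the largest rises there were *Yes1*, 91.7 to 92.8, and *Grb2*, 93.1 to 94.2. All 6 growth factor targets, such as *Fos* and *Egr1*, were open in both, with a median difference of -0.0613 points.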

How the data were processed

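ATAC-Seq had been run on sorted heart nuclei, 2 GFP- and 2 GFP+ libraries. As the authors describe it, reads were trimmed (fastp) and aligned to mm10 (Bowtie2, version 2.3.5.1 in the submitters' processing notes). They were filtered for quality (SAMtools), freed of duplicates (Picard) and downsampled to 1 common number of reads. Genrich then called 1 peak list from the 2 replicates of a population, without chrM, chrY and blacklisted regions. As chrM was left out after the downsampling, the nuclear reads per library may differ in number. Their number is not known here, and its effect on the lists was not tested. Joint calling leaves no value per library. Of the deposited columns, the area is a signal that the caller summed over a peak. The -log10 p-value deposited beside it belongs to the summit. The deposited score, which has an upper limit, was not used. Read counts per peak were not used here.

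Ranks, overlaps (at least 1 bp) and covered lengths were computed from the lists in Python 3.11.15 (pandas 2.3.3, numpy 2.4.6, scipy 1.17.1, pysam 0.24.0, with figures by matplotlib 3.10.9), and the steps were checked on simulated peaks. Genes came from GENCODE M21. Windows were the gene body with 50 kb flanks, and a peak within 1000 bp of a start was classed as at the start. In 500 promoter windows compared, RefSeq sequence and genome were identical. Words were searched on both strands in 200 bp around summits. Alternatives were other start windows, ranks, overlaps, flanks and a least area of 400. Members, lists and words were chosen with earlier results of these data known. Named were the members, neighbours with a start in a window, pathway genes in 1 list or among the 3 largest differences each way, markers against their label, and the 2 genes most like each member. Peaks given in full are start peaks and, per gene, up to 3 in 1 list only and up to 2 shared ones, and other peaks were named after their values were seen.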

Additional observations from a re-analysis of the deposited data

How the results depend on the processing

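No paired analysis was possible because each population has a single peak list called from both replicates, and for the same reason leaving out a replicate was not run. Of 67 recomputed values, 54 changed little, that is, stayed within 1.5 times for a count, within the Wilson interval for a share or within 5 points for a rank difference. Counting a pair as shared only when each peak covers at least 50% of the other lowered the share to 11.5% for receptors in GFP-, 59.4% for ligands in GFP-, 55.9% for ligands in GFP+ and 36.8% for *Pdgfb* in GFP+, a stricter rule that can only lower it. Ranking by the -log10 p of the summit gave start differences, GFP+ minus GFP-, of -0.0465 points for *Pdgfra*, 26.1 for *Pdgfb*, -1.07 for *Pdgfa* and -6.5 for *Pdgfc*, the last pair with the opposite sign to the main value. Ranking by area per bp gave -4.49 for *Pdgfa*, again with the opposite sign, and 13.5 for *Pdgfd*. With the 5′ end of the gene record alone, the difference was -70.1 for *Pdgfra*, which then had no start peak in GFP+, and 25.6 for *Pdgfb*. With peaks of an area of at least 400, the pathway gene with a start peak in GFP- only was lost, leaving 0. The cause of the changes under other ranks was not tested. Coding transcripts alone, and windows without peaks inside other coding genes, were tried after seeing the data and moved no value past these limits. The difference of *Pdgfrb* ranged from -83 to -78.5 points under all 5 alternatives tried for it. The lists give no read counts, and a peak missing from a list lies under the caller's threshold and is not shown to be closed chromatin.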

Other observations

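Several window peaks lay inside neighbouring genes. Within *Cbx7*, which lies downstream of *Pdgfb* and encodes a Polycomb protein, the GFP+ list held 5 peaks of the window and the GFP- list 4. A peak at chr15:79950178-79951648 in GFP+ ranked 44.8 in GFP- and 78.2 in GFP+, one at chr15:79951888-79952792 ranked 61.7 and 77.7, and one at chr15:79953430-79954019 was in GFP+ alone with rank 58.6. The other pair of higher rank in that gene stood at 72.9 in GFP- and 71.2 in GFP+. Which gene these peaks belong to is not shown by the lists. Within *Csf1r*, downstream of *Pdgfrb*, a peak ranked 39.7 in GFP- and 22.5 in GFP+, although that gene had no start peak in either list.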
